A study of Mus musculus with 45 samples.

Results

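The effect of the small-molecule mixture F/R/C on fibroblasts being turned into muscle by MyoD was examined on day 6. The comparison used 6 of the 45 libraries of the series, chosen by their titles: 3 libraries of MyoD with F/R/C against 3 libraries of MyoD alone, paired by replicate number. All 6 came from mouse embryonic fibroblasts (MEFs) of genotype Tg:Pax7-nGFP/C57BL6;DBA2, which carry a nuclear GFP reporter of Pax7 and a MyoD that doxycycline (Dox) induces. The MyoD group had Dox for 6 days and was labelled myotubes. The F/R/C group had Dox plus F/R/C for 6 days and was labelled muscle fibers and progenitor cells. Dox and induced MyoD were therefore common to both groups, and fibroblasts given F/R/C without Dox were not analysed here. The labels describe harvest with trypsin and name no sorting step for these 6, so each library mixes whatever cells the dish held. The labels do not name the promoter that drives MyoD, and they do not say whether the 3 replicates came from separate embryos or cultures. The p-values below therefore measure the spread between libraries. In the main test that spread was pooled over 33 libraries, the untreated MEFs and the whole MyoD course, and not estimated from these 6 alone.

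MyoD is the transcription factor that can impose a muscle program on fibroblasts, through DNA sites called E-boxes and together with the related factors Myf5, myogenin (Myog) and Myf6. Known from the work on these cells, F/R/C stands for forskolin, which raises cyclic AMP (cAMP), RepSox, which blocks the type I TGF-beta receptor, and CHIR99021, which inhibits GSK3 and so stabilises the Wnt effector beta-catenin. TGF-beta signalling is known for driving deposition of extracellular matrix and for restraining muscle differentiation. Satellite cells, the stem cells of adult muscle, are marked by Pax7 and are kept quiescent by Notch signalling.

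Totals of the 6 libraries ran from 19768312 to 23156191 reads. Levels are given as CPM, the reads of a gene per 1000000 reads of the scaled total of its library. Myod1, the induced gene, was at 3.47 ± 4.49 CPM (SD, n = 3) in untreated MEFs. It was at 1417, 3172 and 1710.1 CPM in the 3 MyoD libraries and at 722, 1061 and 1002 CPM in the 3 F/R/C libraries. All 6 libraries thus carried the induction, and the groups did not overlap, but the difference did not pass the test (log2 fold change -1.09, SE 0.48, edgeR adjusted p 0.069). Myod1 was called lower under 3 of 19 alternatives: in fits of the compared groups only, with the block (-1.08) and without it (-1.15), and without replicate number 1 (-1.10). Reads of the induced copy and of the cells' own gene were not told apart. Muscle fiber markers (Ckm, Acta1, Myog, Mymk, Tnnt3, Mylpf, Ttn and Actn2) summed to 12526 to 19387 CPM with MyoD alone and to 14612 to 17754 CPM with F/R/C, against 49.4 to 97.6 CPM in MEFs, so both groups carried the labelled muscle identity. Fibroblast markers (Col1a1, Col1a2, Col3a1, Pdgfra, Pdgfrb, Thy1, Dcn and Lum) were also present, summing to 3128 to 7443 CPM with MyoD alone and 1551 to 2902 CPM with F/R/C. Col1a1 and Col1a2, the largest members with MyoD alone, were called lower with F/R/C. Pdgfra, Dcn and Lum were called higher and the other 3 were not called, with a median log2 fold change of 0.58. Same-numbered libraries of the 2 groups shared sex-linked transcripts: the number 3 libraries had Y-linked transcripts and the others had Xist.

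F/R/C changed expression broadly. A gene was called when its adjusted p in edgeR's quasi-likelihood test was under 0.05 and its absolute log2 fold change was at least 1. Of 16688 genes tested, 3558 were called, which is 21.3%. Counts of called members in the gene lists below stand against this share. With F/R/C, 1993 genes were higher (11.9% of those tested) and 1565 were lower (9.38%), while 7205 (43.2%) passed the adjusted p alone, and the median log2 fold change over all genes tested was 0.00. The 3 libraries of one group lay entirely above or below those of the other for 8326 genes (49.9%). In a principal component analysis of the 6 libraries, the first component held 67.7% of the variance and separated the groups. The second held 12.4%. Leaving out replicate number 2 from the course gave the lowest count, 2548 called genes. In a bulk library, fewer cells of a type and less RNA per cell cannot be told apart, and this holds for every gene below.

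**Figure D1:**
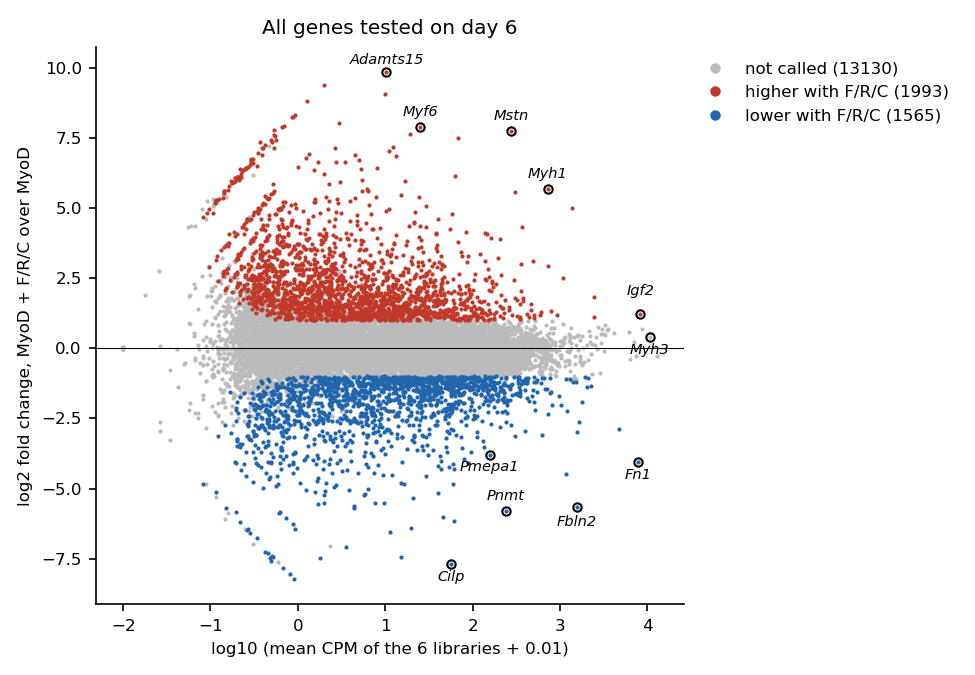
Each point is 1 of the 16688 genes tested on day 6. The horizontal axis is the log10 of its mean CPM over the 6 libraries (plus 0.01) and the vertical axis is its log2 fold change with F/R/C. Red marks the 1993 genes called higher and blue the 1565 called lower, and 11 genes described in the text are named, among them Mstn (log2 fold change 7.74) and Cilp (-7.68).

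The 10 protein-coding genes that rose most, among those reaching 5 CPM with F/R/C and not overlapping between groups, were at most at a few CPM with MyoD alone. Adamts15, a secreted protease that cuts matrix proteoglycans (chromosome 9, 30899155 to 30922452, minus strand), was at 0, 0.0464 and 0 CPM with MyoD alone and at 12.2, 17.4 and 32.4 CPM with F/R/C (log2 fold change 9.84, SE 1.28, edgeR adjusted p 2.7e-06). It had 1 read in all MyoD libraries together, and the ratio of reads was 1284, 95% counting interval 230.1 to 50757. Myf6, the myogenic factor also called MRF4 (chromosome 10, 107492853 to 107494737, minus strand), was at 0.295, 0.232 and 0.0966 CPM with MyoD alone. With F/R/C it was at 51.4, 47.1 and 52.0 CPM, with little spread (log2 fold change 7.89, SE 0.44, edgeR adjusted p 3e-11). Mstn encodes myostatin, a secreted inhibitor of muscle growth (chromosome 1, 53061640 to 53068079, plus strand). Its level was 1.62, 5.29 and 1.55 CPM with MyoD alone and 608, 568 and 488 CPM with F/R/C (log2 fold change 7.74, SE 0.68, edgeR adjusted p 1.1e-08), so the lowest F/R/C library stood far above the highest MyoD library. Lyve1, a hyaluronan receptor known from lymphatic endothelium (chromosome 7, 110850607 to 110863239, minus strand), rose from 0.0983, 0.232 and 0.242 CPM to 39.0, 37.8 and 39.1 CPM (log2 fold change 7.64, SE 0.39, edgeR adjusted p 6.7e-12). Pecam1, a general marker of endothelium, was at 0.639, 0.418 and 0.435 CPM with MyoD alone and 0.0892, 0.499 and 0.476 CPM with F/R/C, under 1 CPM in all 6 libraries. Of the 7 endothelial markers tested, Vwf was called higher (mean 2.93 to 6.27 CPM, log2 fold change 1.07). Emcn was called lower (mean 1.44 to 0.157 CPM, -2.74). Which cells carried Lyve1 was not tested.

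The other 6 genes of this set were of mixed function. Pkd2l1, a cation channel of the polycystin family, reached 15.5, 33.8 and 9.52 CPM with F/R/C, with 2 reads in the MyoD libraries (ratio of reads 604, 95% counting interval 167 to 4994). Magel2, an imprinted gene of the MAGE family, was at 0.540, 1.67 and 0.145 CPM with MyoD alone and 81.7, 174 and 145 CPM with F/R/C (log2 fold change 7.49, SE 0.51, edgeR adjusted p 3.7e-10). Car2, a carbonic anhydrase, went from 0.175 ± 0.110 to 24.4 ± 5.24 CPM (SD, n = 3; log2 fold change 7.19). Tmem178, a transmembrane protein, was at 5.83 ± 2.60 CPM with F/R/C (ratio of reads 371, 95% counting interval 66.2 to 14685), and Myo16, an unconventional myosin, at 5.25 ± 0.996 CPM (ratio of reads 164, 95% counting interval 44.97 to 1357). Lum encodes lumican, a small proteoglycan that binds collagen (chromosome 10, 97565128 to 97572703, plus strand). It was at 0, 0.139 and 0.435 CPM with MyoD alone and 17.1, 9.17 and 39.0 CPM with F/R/C (log2 fold change 7.04, SE 1.31, edgeR adjusted p 0.00016). MEFs held 81.1 ± 117 CPM (SD, n = 3), a spread larger than the mean, so the F/R/C level cannot be placed against that of the starting cells. All 10 kept their call under each alternative. The size rested on single MyoD libraries where reads were few: leaving out MyoD library 2 put Adamts15 at 11.91, Pkd2l1 at 11.35 and Magel2 at 8.21, leaving out MyoD library 1 put Myo16 at 9.85, and leaving out MyoD library 3 put Tmem178 at 9.88.

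Several of the 10 genes that fell most, chosen by the same rule in the other direction, encode secreted or matrix proteins. Cilp, a cartilage matrix protein (chromosome 9, 65265180 to 65280605, plus strand), was at 83.2, 78.1 and 175 CPM with MyoD alone and 0.268, 0.997 and 0.286 CPM with F/R/C (log2 fold change -7.68, SE 0.62, edgeR adjusted p 4e-09). Pnmt, the enzyme that makes adrenaline from noradrenaline (chromosome 11, 98386450 to 98388181, plus strand), was at 358, 814 and 234 CPM with MyoD alone and 8.43, 11.1 and 4.47 CPM with F/R/C (log2 fold change -5.80, SE 0.61, edgeR adjusted p 2.7e-07). Its MyoD libraries spread widely, yet the lowest of them stood far above the highest F/R/C library. Fbln2, an elastic fiber glycoprotein (chromosome 6, 91212455 to 91272540, plus strand), fell from 4098, 1615 and 3384 CPM to 107, 40.0 and 39.8 CPM (log2 fold change -5.64, SE 0.43, edgeR adjusted p 2.1e-09). MEFs held 2002 ± 786 CPM (SD, n = 3) of Fbln2, but no reads of Pnmt and only 0.0440 ± 0.0444 CPM of Cilp.

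Among the others, Wif1, a secreted inhibitor of Wnt ligands, fell from 32.7, 56.4 and 28.8 CPM to 0.625, 0.449 and 0.238 CPM (log2 fold change -6.41, SE 0.66, edgeR adjusted p 1e-07). Ramp1, a partner of the receptor for the peptide CGRP, fell from 122 ± 34.5 to 1.68 ± 1.11 CPM (log2 fold change -6.15). Aldh3b3, an aldehyde dehydrogenase, was at 22.4 ± 2.63 CPM with MyoD alone and 0.259 ± 0.213 CPM with F/R/C (log2 fold change -6.55). A lower level was also called for Tfpi2, a protease inhibitor (30.2 ± 25.4 against 0.140 ± 0.0881 CPM; log2 fold change -7.45). Lce1h, a gene of the cornified envelope family, had 3 reads with F/R/C (MyoD reads over F/R/C reads 148, 95% counting interval 50.4 to 722). Csprs lies on an unplaced scaffold (GL456221.1) and shares reads with other genes, so its fall from 8.66 ± 3.59 to 0.172 ± 0.1495 CPM is uncertain. Estimated counts of Mstn, Magel2, Lce1h, Aldh3b3, Pnmt and Fbln2 were not all whole numbers either, so some of their reads may be shared too. Leaving out 1 F/R/C library moved several sizes and no call: without library 1, Lce1h was at -7.82, Ramp1 at -6.91 and Tfpi2 at -8.20, without library 2 Cilp was at -8.64, and without library 3 Tfpi2 was at -6.58.

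**Figure D2:**
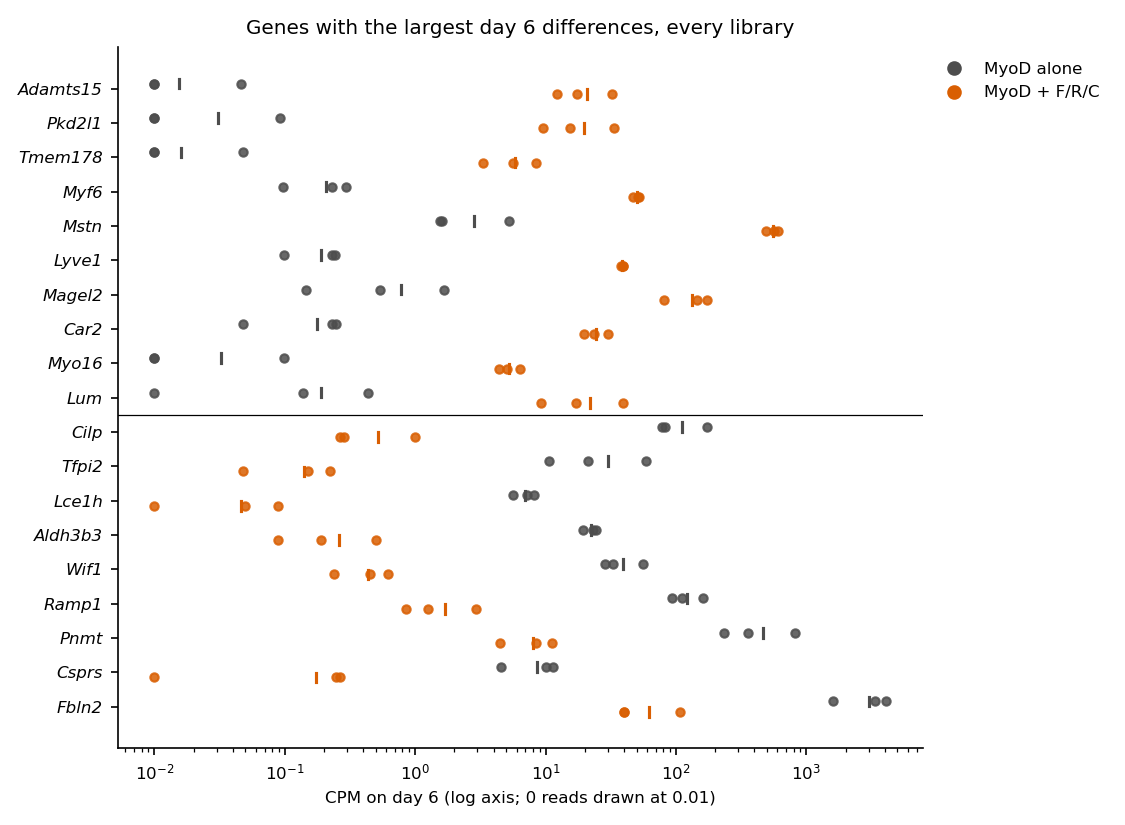
CPM of the 10 genes that rose most (upper) and 9 of the 10 that fell most (lower) in each day 6 library, on a log axis. Grey points are MyoD alone, orange points are MyoD with F/R/C, bars are group means, and libraries without reads are drawn at 0.01. The rule of choice required that the 3 libraries of each group lie apart from those of the other, so all 19 genes shown do.

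Promoters of 2 of the genes that fell are shown because they hold the sites that MyoD or Wnt effectors are known to bind. Those of Fbln2, Lce1h, Ramp1, Tfpi2 and Wif1, which also fell, held neither site. The sequences are RefSeq's (GRCm38.p6), from 250 bases before to 50 after the annotated start, and capitals mark the E-box CAGCTG, or CTTTGAA, the site of TCF/LEF factors, read on either strand. Cilp had an E-box that begins 39 bases before the start. In Aldh3b3 E-boxes begin 183 and 81 bases before the start, and a TCF/LEF match on the other strand (TTCAAAG) adjoins the latter.
Cilp (chr9:65264930-65265229, plus strand): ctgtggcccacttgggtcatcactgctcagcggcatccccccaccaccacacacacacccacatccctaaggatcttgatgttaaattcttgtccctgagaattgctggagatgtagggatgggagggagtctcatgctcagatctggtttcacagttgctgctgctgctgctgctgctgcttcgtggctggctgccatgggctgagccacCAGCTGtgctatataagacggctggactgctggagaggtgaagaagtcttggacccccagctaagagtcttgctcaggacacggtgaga
Aldh3b3 (chr19:3958558-3958857, plus strand): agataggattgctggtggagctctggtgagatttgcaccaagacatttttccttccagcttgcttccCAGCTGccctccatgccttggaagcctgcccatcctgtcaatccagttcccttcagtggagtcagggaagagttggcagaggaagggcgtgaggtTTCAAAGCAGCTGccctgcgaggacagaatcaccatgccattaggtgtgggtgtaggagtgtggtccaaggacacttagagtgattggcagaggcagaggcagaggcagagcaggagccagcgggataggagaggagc

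Most targets of TGF-beta signalling fell. Of 17 genes of a target list that were tested, 12 were lower with F/R/C and 1 was higher, with a median log2 fold change of -1.30. Feedback inhibitors that the pathway induces were among them. Pmepa1, a membrane protein that sequesters Smads (chromosome 2, 173224458 to 173276533, minus strand), fell from 321, 273 and 283 CPM to 26.8, 17.4 and 19.8 CPM (log2 fold change -3.78, SE 0.27, edgeR adjusted p 4.9e-10). The highest F/R/C library stood far below the lowest MyoD library. Smad7, the inhibitory Smad, fell from 83.9 ± 23.0 to 16.6 ± 8.08 CPM (SD, n = 3; log2 fold change -2.38), and Skil, a Smad repressor, from 117 ± 5.75 to 48.2 ± 7.31 CPM (-1.30).

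The secreted members followed. Ccn2, connective tissue growth factor, was at 1598, 886 and 833 CPM with MyoD alone and 316, 110.5 and 43.4 CPM with F/R/C (log2 fold change -3.09, SE 0.58, edgeR adjusted p 0.00017). Ltbp2, a latent TGF-beta binding protein, had a log2 fold change of -2.58. Tgfb1, the ligand itself, was at 70.4, 52.7 and 59.1 CPM with MyoD alone and 17.2, 13.7 and 14.1 CPM with F/R/C (log2 fold change -2.01, SE 0.22, edgeR adjusted p 3.2e-07). The 2 other ligand genes, Tgfb2 (0.94) and Tgfb3 (0.27), were not called, though Tgfb2 was called higher without MyoD library 2 (1.14). In untreated MEFs Pmepa1 was at 76.5 ± 14.2 CPM and Ccn2 at 244 ± 173 CPM, so the means of both lay below that of MEFs with F/R/C and above it with MyoD alone. The 1 member called higher was Lrrc32, a receptor that holds latent TGF-beta at the cell surface (log2 fold change 1.08). Its groups overlapped, F/R/C library 1 was far above the rest at 207 CPM, and the call was lost without that library (log2 fold change 0.69), without MyoD library 1 (0.92) and without the replicate block (1.31, adjusted p 0.14).

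Targets of Wnt and beta-catenin were divided. Of 13 tested, 4 were higher and 2 lower, with a median of 0.27. Axin2, a feedback inhibitor and the most used readout of the pathway (chromosome 11, 108920349 to 108950783, plus strand), was at 3.54, 5.43 and 4.15 CPM with MyoD alone and 17.6, 17.6 and 15.1 CPM with F/R/C (log2 fold change 1.95, SE 0.38, edgeR adjusted p 0.00026). Notum, an enzyme that inactivates Wnt ligands, rose from 0.246, 0.0464 and 0.0966 CPM to 7.72, 2.79 and 2.33 CPM (log2 fold change 4.98, SE 0.60, edgeR adjusted p 9.3e-07). Neither overlapped between groups. Lef1 and Tcf7, which encode DNA-binding partners of beta-catenin, were not called (log2 fold changes -0.10 and -0.13). Without MyoD library 1 the number called higher was 2. Of the 2 lower members, Wif1 is given above, and Ccnd1, cyclin D1, fell from 594, 279 and 596 CPM to 266, 129.9 and 169 CPM (log2 fold change -1.36, SE 0.28, edgeR adjusted p 0.00043). The other 2 members called higher were less stable. Nkd2 (log2 fold change 1.66) overlapped between groups and lost its call without F/R/C library 1 (1.33), without MyoD library 1 (1.52) and without the replicate block (1.80, adjusted p 0.064). Lgr5 (2.01) lost it without F/R/C library 3 (1.54), MyoD library 1 (1.87) or MyoD library 3 (1.71).

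Of 17 genes of the cAMP response tested, 3 were higher and 1 lower, a share near the 21.3% called over all genes tested, with a median of 0.65. The 3 called higher were Sik1, a kinase that restrains CREB coactivators, and the phosphodiesterases Pde4b and Pde3b, which break down cyclic nucleotides. The other 13 members, neither higher nor lower, were not called. Sik1 was at 185, 251 and 171 CPM with MyoD alone and 403, 467 and 459 CPM with F/R/C (log2 fold change 1.15, SE 0.22, edgeR adjusted p 0.00026). Pde4b rose from 19.9, 12.9 and 25.2 CPM to 47.7, 56.2 and 65.7 CPM (log2 fold change 1.60, SE 0.26, edgeR adjusted p 3e-05). Pde3b rose from 9.63, 4.55 and 6.86 CPM to 28.3, 24.0 and 33.03 CPM (log2 fold change 2.10, SE 0.41, edgeR adjusted p 0.00025). In each of the 3 every F/R/C library exceeded every MyoD library. The immediate early gene Fos had a log2 fold change of -0.81 (adjusted p 0.00047) and so missed the fold that a call needs, and Crem had 0.65. The number called higher was 5 without MyoD library 1 and 5 without F/R/C library 3. Nr4a2, the 1 member called lower (-1.11), lost its call without F/R/C library 3 (-0.84).

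**Figure D3:**
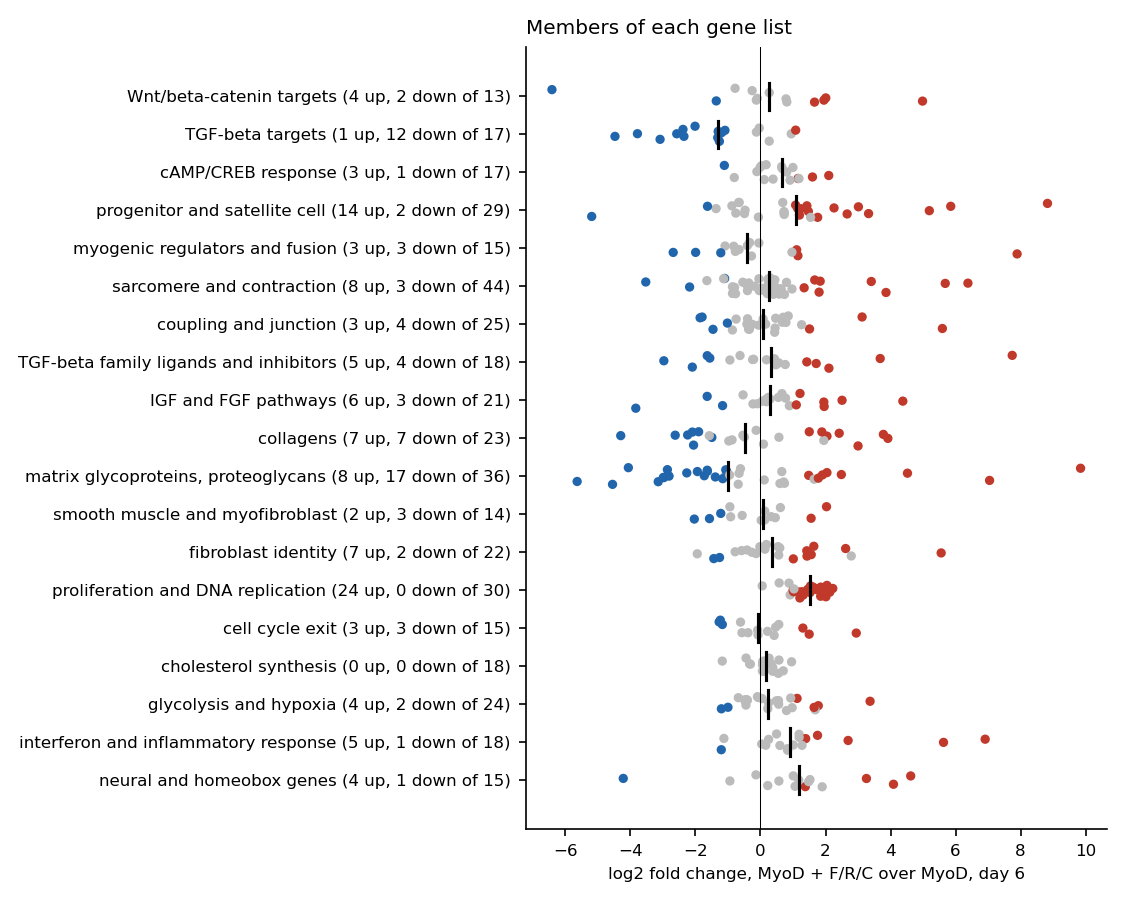
Log2 fold changes with F/R/C on day 6 for the tested members of 19 gene lists, 1 point a gene. Red points were called higher, blue points called lower and grey points not called, black bars are list medians, and the counts stand beside each name. TGF-beta targets lie mostly left of 0 (median -1.30) and proliferation genes right of it (1.53).

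Of 29 genes of muscle progenitors and satellite cells tested, 14 were higher with F/R/C, 13 were not called and 2 were lower, with a median of 1.08. Pax7 (chromosome 4, 139737062 to 139833528, minus strand) was at 0.0983, 0.0464 and 0.0483 CPM with MyoD alone and 2.59, 1.65 and 9.09 CPM with F/R/C (log2 fold change 5.85, SE 0.80, edgeR adjusted p 6.9e-06). The F/R/C libraries were unequal, and without library 3 the log2 fold change was 4.95. Myf5, the factor next to Myf6 on the chromosome (chromosome 10, 107482908 to 107486134, minus strand), had no reads in the 3 MyoD libraries and was at 1.61, 3.49 and 2.43 CPM with F/R/C, at least 17.4-fold higher against a floor of 3 reads per library (edgeR adjusted p 5e-06). Msc, musculin, a repressor of differentiation, rose from 0.147, 0.0464 and 0.193 CPM to 0.937, 7.28 and 8.52 CPM (log2 fold change 5.19, SE 0.77, edgeR adjusted p 1.2e-05). F/R/C library 1 was the lowest for Msc and still above all MyoD libraries.

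Notch pathway genes were among these. The receptor gene Notch3 was at 45.8, 20.0 and 29.8 CPM with MyoD alone and 106, 148 and 184 CPM with F/R/C (log2 fold change 2.26, SE 0.30, edgeR adjusted p 3.8e-06). The target Heyl rose from 6.93, 12.5 and 9.32 CPM to 35.2, 93.8 and 111 CPM (log2 fold change 3.01, SE 0.52, edgeR adjusted p 7.2e-05). Another target, Hey1, rose from 3.49, 3.85 and 1.30 CPM to 19.1, 31.2 and 35.7 CPM (log2 fold change 3.32, SE 0.46, edgeR adjusted p 5.3e-06). The ligand gene Dll1 rose too (log2 fold change 1.43), while the ligand genes Jag1 (-0.67) and Jag2 (0.68) were not called. Hes1, also a Notch target, had a log2 fold change of -0.76 (adjusted p 0.00067) in the opposite direction, under the fold that a call needs.

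Upstream regulators and surface proteins were also on the list. Eya1, a transcriptional coactivator of the muscle lineage, rose from 5.65, 6.45 and 7.004 CPM to 12.8, 15.7 and 15.4 CPM (log2 fold change 1.20, SE 0.22, edgeR adjusted p 0.00014). The homeobox gene Six4 (1.24) also rose. So did the receptor gene Fgfr4 (1.76) and the heparan sulfate proteoglycan gene Sdc4 (1.14). The receptor gene Fgfr1 had a log2 fold change of -0.88 (adjusted p 7.3e-05), under the fold that a call needs. The 2 members that fell were Sdc3 (-1.63) and Chodl, which encodes the lectin chondrolectin. Chodl was at 11.4, 15.3 and 7.20 CPM with MyoD alone and 0.669, 0.349 and 0 CPM with F/R/C (log2 fold change -5.19, SE 0.57, edgeR adjusted p 3e-07), and without F/R/C library 1 it was at -6.12. Cdh15, M-cadherin, was abundant in both groups and not called (500.1, 775 and 665 CPM with MyoD alone, 969, 1060.2 and 1149 CPM with F/R/C, log2 fold change 0.73). Calcr, the calcitonin receptor of quiescent satellite cells, had no reads in any of the 6 libraries.

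Core myogenic regulators and fusion genes were called in both directions. Of 15 tested, 3 were higher, 3 lower and 9 not called, with a median of -0.40. Myog was at 852, 1311 and 893 CPM with MyoD alone and 859.8, 970.3 and 1032 CPM with F/R/C (log2 fold change -0.05, SE 0.58, edgeR adjusted p 0.95). The fusion gene Mymk, myomaker, was at 888, 1495 and 1136 CPM with MyoD alone and 885, 930.2 and 915 CPM with F/R/C (log2 fold change -0.33, SE 0.54, edgeR adjusted p 0.65). Groups overlapped for both. Mef2c, a partner of MyoD, had a log2 fold change of -0.82 and was not called, whereas the related Mef2a rose from 218, 233 and 208 CPM to 467, 466 and 492 CPM (log2 fold change 1.11, SE 0.16, edgeR adjusted p 8.9e-06). Myf6, the largest gain in this list, is given above. The genes that fell included Cav3, caveolin of the muscle membrane (209 ± 4.11 to 53.2 ± 17.4 CPM, SD, n = 3; log2 fold change -1.99), and Jam2, an adhesion protein (281 ± 34.7 to 43.5 ± 3.11 CPM; -2.68).

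Sarcomere genes were called as a share near the 21.3% over all genes tested, and those called included genes of particular fiber types. Of 44 tested, 33 were not called, 8 were higher and 3 lower, with a median of 0.25. Skeletal actin, Acta1, was at 5954, 9122 and 4775 CPM with MyoD alone and 6550.1, 7702 and 8123 CPM with F/R/C (log2 fold change 0.23, SE 0.35, edgeR adjusted p 0.63). Of the 8 that rose, several are known from fast adult fibers. Myh1, the myosin heavy chain of type IIx fibers (chromosome 11, 67200052 to 67224575, plus strand), was at 26.1, 41.1 and 18.7 CPM with MyoD alone and 1856, 1431 and 972 CPM with F/R/C (log2 fold change 5.68, SE 0.59, edgeR adjusted p 1.3e-07). Pvalb, the calcium buffer parvalbumin of fast fibers, rose from 0, 0.139 and 0.193 CPM to 9.28, 4.74 and 17.2 CPM (log2 fold change 6.38, SE 0.66, edgeR adjusted p 2.4e-07), and the fast myosin binding protein gene Mybpc2 rose from 0.638 ± 0.361 to 8.38 ± 2.11 CPM (3.86). The fast genes Mylk2, a myosin kinase (1.67), and Actn3, an actinin (1.34), were also called higher. Both calls were lost without F/R/C library 3 (1.46 and 1.14) and without replicate number 2 (2.01 and 1.50). That of Mylk2 was also lost without MyoD library 3 (1.36) or replicate number 1 (1.88), and that of Actn3 without MyoD library 1 (1.28) or replicate number 3 (1.20). The 8 were not all of this kind. Cardiac troponin I, Tnni3, was called higher too (0.0962 ± 0.0496 to 1.09 ± 0.425 CPM; 3.41). So was Myh6, the alpha myosin of the heart (1.84), but its groups overlapped, and the call was lost without the replicate block (1.64, adjusted p 0.17), without F/R/C library 3 (1.59), without MyoD library 3 (1.32), and without replicate number 1 (2.33) or 2 (2.26). The fast myosin gene Myh2 was not called (0.64). Fiber type as such was not tested. Genes known from slow and oxidative fibers stood among the 3 that fell. Myl3, the slow myosin light chain, fell from 45.4, 138 and 85.6 CPM to 2.36, 8.43 and 16.0 CPM (log2 fold change -3.53, SE 0.60, edgeR adjusted p 6.7e-05). Mb, myoglobin, fell from 149, 247 and 118 CPM to 41.9, 40.0 and 26.5 CPM (log2 fold change -2.18, SE 0.32, edgeR adjusted p 1.5e-05). Not all slow genes changed: Tnni1 (-0.19), Tnnt1 (-0.45) and Tnnc1 (-0.40) were not called. Nor were the fast forms Tnni2 (0.33), Tnnt3 (0.23) and Tnnc2 (0.42). Without F/R/C library 3 the number of sarcomere genes called higher was 5.

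Myosin heavy chains can be compared with each other through the authors' TPM values, which are scaled to transcript length. As a share of the summed TPM of 8 muscle myosin genes, embryonic Myh3 led in every library, at 53.1%, 44.6% and 48.2% with MyoD alone and 57.5%, 57.4% and 57.6% with F/R/C. Perinatal Myh8 came next, at 33.7%, 37.4% and 37.3% against 21.5%, 25.5% and 27.9%. Slow Myh7 held 9.91%, 15.2% and 11.7% with MyoD alone and 5.08%, 5.90% and 4.35% with F/R/C. Adult fast Myh1 held 0.186%, 0.167% and 0.0967% with MyoD alone and 10.5%, 6.82% and 4.33% with F/R/C. For Myh3, Myh7, Myh8 and Myh1 the shares of the groups did not overlap, in each direction as listed. Nor did those of Myh4 (0.570% to 1.10% with MyoD alone, 1.81% to 3.52% with F/R/C). The same held for Myh6 (0.0615% to 0.185% against 0.237% to 0.677%), while the shares of Myh2 and Myh7b overlapped. Over all genes tested, levels did not overlap for 49.9%. Shares are parts of a whole, so a rise of some lowers others. In reads rather than shares, Myh3 (log2 fold change 0.39) and Myh8 (-0.40) were not called, Myh4, the fastest adult form, was called higher (1.80), and Myh7 was called lower (-1.10). The call of Myh7 was lost without MyoD library 2 (-1.02) or 3 (-0.93), without F/R/C library 1 (-1.06) or 2 (-0.90), and without the replicate block (-1.20, adjusted p 0.11), and that of Myh4 in a fit of all 45 libraries without the block. These myosin genes are similar in sequence, so reads they share were divided among them by the counting.

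**Figure D4:**
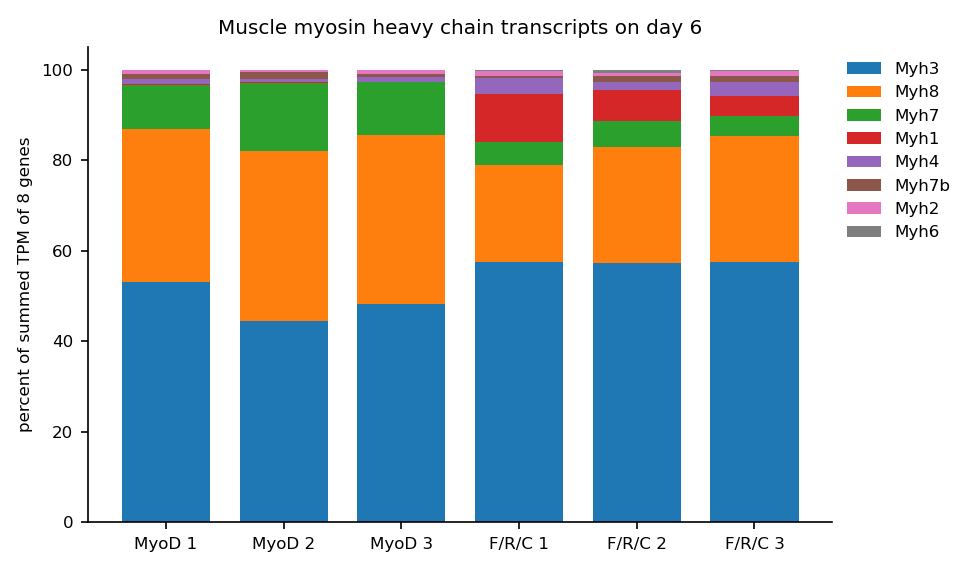
Share of each of 8 muscle myosin heavy chain genes in their summed TPM, for the 6 day 6 libraries, in percent. Myh3 and Myh8 fill most of every bar, and the Myh1 band is wider in the 3 F/R/C libraries (4.33% to 10.5%) than in the 3 MyoD libraries (0.0967% to 0.186%).

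Excitation and coupling genes were called in both directions, as a share not far above the 21.3% over all genes tested. Of 25 tested, 18 were not called, 3 were higher and 4 lower, with a median of 0.08. Casq1, the calcium store protein calsequestrin of fast fibers (chromosome 1, 172209894 to 172219868, minus strand), was at 12.8, 17.1 and 8.11 CPM with MyoD alone and 623, 611 and 559 CPM with F/R/C (log2 fold change 5.59, SE 0.48, edgeR adjusted p 8.6e-09), with a gap between the groups and little spread within them. Casq2, its slow and cardiac relative, was not called (0.45). Ache, acetylcholinesterase of the neuromuscular junction, rose from 5.31, 5.34 and 0.966 CPM to 26.4, 31.7 and 48.6 CPM (log2 fold change 3.12, SE 0.59, edgeR adjusted p 0.00019). Clcn1, the chloride channel of mature fibers, fell from 3.44, 7.05 and 6.04 CPM to 1.07, 1.84 and 1.57 CPM (log2 fold change -1.86, SE 0.38, edgeR adjusted p 0.00042). Ryr1, the calcium release channel, was at 696, 1017 and 794 CPM with MyoD alone and 749, 931 and 726 CPM with F/R/C, and was not called. The voltage sensor gene Cacna1s was called lower (-1.46) and the sodium channel gene Scn4a higher (1.51). These 2 calls were lost in a fit of all 45 libraries without the block.

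The promoters of Casq1 and Myh4, which are known from fast fibers and were called higher, are shown with the E-box CAGCTG in capitals (RefSeq, GRCm38.p6, same window). The E-box begins 195 bases before the start in Casq1 and 67 bases before it in Myh4. Promoters of Myh1, Pvalb and Mybpc2, fast genes also called higher, held no CAGCTG. The site was in 18.0% of promoters of genes called higher and 21.5% of those called lower.
Casq1 (chr1:172219846-172220145, minus strand): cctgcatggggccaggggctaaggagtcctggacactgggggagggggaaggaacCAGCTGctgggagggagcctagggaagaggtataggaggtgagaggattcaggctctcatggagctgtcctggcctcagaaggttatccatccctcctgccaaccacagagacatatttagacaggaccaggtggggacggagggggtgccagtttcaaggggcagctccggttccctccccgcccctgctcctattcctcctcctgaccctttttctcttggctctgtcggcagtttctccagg
Myh4 (chr11:67237562-67237861, plus strand): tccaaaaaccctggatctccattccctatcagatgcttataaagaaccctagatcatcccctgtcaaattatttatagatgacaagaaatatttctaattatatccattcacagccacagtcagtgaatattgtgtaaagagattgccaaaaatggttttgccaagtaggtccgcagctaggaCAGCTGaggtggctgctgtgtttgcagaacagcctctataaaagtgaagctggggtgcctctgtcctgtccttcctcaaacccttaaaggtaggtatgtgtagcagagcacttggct

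Secreted factors of the TGF-beta family and their inhibitors were called in both directions. Of 18 tested, 5 were higher and 4 lower, with a median of 0.31. Besides Mstn, the closely related Gdf11 rose from 27.3, 19.0 and 23.0 CPM to 71.9, 76.1 and 77.3 CPM (log2 fold change 1.71, SE 0.17, edgeR adjusted p 9.6e-08). Gdf5, a ligand of the BMP branch, rose from 7.42, 7.10 and 2.95 CPM to 92.6, 68.6 and 54.3 CPM (log2 fold change 3.68, SE 0.38, edgeR adjusted p 1.3e-07). Among the secreted inhibitors, Fstl3, which binds activins and myostatin, fell from 51.2, 33.4 and 35.8 CPM to 13.8, 7.18 and 7.57 CPM (log2 fold change -2.10, SE 0.30, edgeR adjusted p 8.3e-06). Follistatin, Fst, was not called (-0.94), but was called lower without MyoD library 3 (-1.21) or F/R/C library 1 (-1.29). Id1 (0.43) and Id3 (0.47), targets of BMP signalling, were not called either, and Id2 was (1.42), though not without replicate number 2 (1.20). The number called lower was 2 without replicate number 2 and 2 without the replicate block.

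Genes of the IGF and FGF pathways were called in both directions. Of 21 tested, 6 were higher, 3 lower and 12 not called, with a median of 0.29. Igf2, a growth factor of embryonic muscle (chromosome 7, 142650766 to 142666816, minus strand), was at 4128, 5892 and 5057 CPM with MyoD alone and 10906, 11447 and 12185 CPM with F/R/C (log2 fold change 1.22, SE 0.37, edgeR adjusted p 0.011), against 217 ± 147 CPM in MEFs. The groups did not overlap, but the call was lost without MyoD library 1 (log2 fold change 1.12), or without all libraries of replicate number 1 (1.17) or 2 (1.32). Igf1 rose from 6.78, 6.45 and 6.86 CPM to 30.5, 29.1 and 18.5 CPM (log2 fold change 1.96, SE 0.43, edgeR adjusted p 0.00079). The binding protein genes Igfbp5 (328 ± 151 to 1848 ± 338 CPM; log2 fold change 2.51) and Igfbp2 (40.4 ± 11.4 to 151 ± 13.8 CPM; 1.95) rose as well. Another binding protein gene, Igfbp7, was called lower (189 ± 72.2 to 61.4 ± 32.2 CPM; -1.64), though not in a fit of all 45 libraries without the block (-1.66, adjusted p 0.066). The receptor genes Igf1r (0.18) and Igf2r (-0.23) were not called. Fgf2, a mitogen of myoblasts, fell from 114, 52.7 and 68.1 CPM to 11.7, 4.19 and 2.33 CPM (log2 fold change -3.84, SE 0.39, edgeR adjusted p 9.5e-08). Fgf21, a hormone that stressed muscle secretes, rose from 0.0807 ± 0.0578 to 1.79 ± 0.471 CPM (4.38), with 5 reads in the MyoD libraries, and without MyoD library 1 it was at 5.26.

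Collagens were called in both directions. Of 23 tested, 7 were higher, 7 lower and 9 not called, with a median of -0.49. The 3 collagen VI genes, whose products form 1 microfibril around muscle fibers, rose. Col6a1 was at 95.5, 42.4 and 174 CPM with MyoD alone and 596, 299 and 598 CPM with F/R/C (log2 fold change 2.42, SE 0.34, edgeR adjusted p 7.7e-06). Col6a2 was at 23.1, 11.97 and 51.0 CPM with MyoD alone and 433, 228 and 489.6 CPM with F/R/C (log2 fold change 3.92, SE 0.45, edgeR adjusted p 4.4e-07). Col6a3 was at 66.2, 25.5 and 229 CPM with MyoD alone and 659, 351 and 819 CPM with F/R/C (log2 fold change 3.00, SE 0.45, edgeR adjusted p 1.6e-05), and without the replicate block it was at 2.51 and was not called (adjusted p 0.052). MEFs held 834 ± 57.6, 463 ± 109 and 358 ± 178 CPM of these genes in the same order, so the means of Col6a1 and Col6a2 were highest in MEFs and lowest with MyoD alone.

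Genes of the basement membrane collagens XV, XVIII and XIX rose too, while Col4a1 (-0.49) and Col4a2 (-0.54), the main collagens of basement membranes, were not called. Col15a1 went from 7.22, 4.59 and 24.2 CPM to 89.3, 163 and 125 CPM (log2 fold change 3.78, SE 0.61, edgeR adjusted p 3.7e-05), and without F/R/C library 2 it was at 3.08. Col18a1 and Col19a1 had log2 fold changes of 1.89 and 1.50. Of the fibrillar collagens, Col11a1 fell from 139, 55.3 and 53.5 CPM to 7.94, 2.24 and 2.71 CPM (log2 fold change -4.30, SE 0.46, edgeR adjusted p 2e-07). Col5a2 fell from 3524, 1859.7 and 3198 CPM to 679, 319.9 and 391.5 CPM (log2 fold change -2.62, SE 0.28, edgeR adjusted p 1.7e-07). Of the other collagen V chains, Col5a3 was called higher (27.0 ± 18.6 to 95.8 ± 34.6 CPM; 2.04), though not in a fit of all 45 libraries without the block, and Col5a1 had a log2 fold change of -0.97 (adjusted p 0.00059), under the fold that a call needs. Col5a1 was called lower without the replicate block (-1.02), without MyoD library 2 (-1.05) and without F/R/C library 2 (-1.03). Col1a1 (-1.90) and Col1a2 (-2.24), the chains of collagen I, were called lower, but not in a fit of all 45 libraries without the block. Col3a1, the collagen of loose tissue, was not called (0.57).

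The promoters of Col6a2 and Col15a1 are shown because both genes rose and both have a promoter with a TCF/LEF match in this window, marked in capitals (RefSeq, GRCm38.p6). Col6a2 has 2 promoters in the table, and the other one held no match. Promoters of the other collagens called higher (Col5a3, Col6a1, Col6a3, Col18a1 and Col19a1) held none, while those of Bgn and Chodl, called lower, did. Such a match was in 8.45% of promoters of genes called higher, 6.99% of those called lower and 6.23% of those tested. The match begins 197 bases before the start in Col6a2, and 131 bases before it, on the other strand, in Col15a1.
Col6a2 (chr10:76623581-76623880, minus strand): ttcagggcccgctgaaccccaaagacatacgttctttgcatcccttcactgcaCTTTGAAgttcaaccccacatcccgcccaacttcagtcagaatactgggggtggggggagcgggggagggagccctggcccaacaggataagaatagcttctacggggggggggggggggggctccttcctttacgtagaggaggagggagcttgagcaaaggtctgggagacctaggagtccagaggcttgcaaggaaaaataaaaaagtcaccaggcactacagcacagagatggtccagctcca
Col15a1 (chr4:47207762-47208061, plus strand): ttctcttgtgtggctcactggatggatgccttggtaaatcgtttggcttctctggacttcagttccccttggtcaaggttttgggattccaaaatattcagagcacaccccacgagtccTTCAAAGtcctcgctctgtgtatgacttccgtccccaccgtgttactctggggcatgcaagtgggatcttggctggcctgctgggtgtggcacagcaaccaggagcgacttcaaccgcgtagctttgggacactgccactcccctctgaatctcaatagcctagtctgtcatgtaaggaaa

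Of 36 non-collagen matrix genes tested, 17 were lower, 8 higher and 11 not called, with a median of -0.99, and their summed level was 23848 to 49731 CPM with MyoD alone against 4732 to 11625 CPM with F/R/C. Fn1, fibronectin, was among the most abundant transcripts with MyoD alone (chromosome 1, 71585520 to 71653200, minus strand). It was at 21119, 8953 and 14188 CPM with MyoD alone and 1853, 675 and 389 CPM with F/R/C (log2 fold change -4.06, SE 0.44, edgeR adjusted p 2.3e-07). Thbs1, thrombospondin 1, an activator of latent TGF-beta, fell from 11074, 5278 and 7923 CPM to 2702, 769 and 442 CPM (log2 fold change -2.86, SE 0.46, edgeR adjusted p 3e-05). Lox, which crosslinks collagen and elastin, fell from 459.8, 269 and 353 CPM to 75.1, 38.2 and 42.7 CPM (log2 fold change -2.81, SE 0.34, edgeR adjusted p 1e-06). In Fn1, Thbs1 and Lox alike, library 1 of the F/R/C group was the highest of its group and still below all MyoD libraries.

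Other glycoproteins that fell were Adamtsl2 (56.0 ± 13.6 to 2.40 ± 0.716 CPM; log2 fold change -4.55), which binds fibrillin, the protease inhibitor Timp1 (-2.27) and the collagen-binding Sparc (-1.39). Small leucine-rich proteoglycans, which coat collagen fibrils, were called in both directions. Dcn, decorin, was at 0.540, 0.928 and 5.55 CPM with MyoD alone and 35.5, 23.1 and 63.1 CPM with F/R/C (log2 fold change 4.52, SE 0.87, edgeR adjusted p 0.00022). Ogn, osteoglycin, rose from 30.8, 36.1 and 37.9 CPM to 177, 154 and 109 CPM (log2 fold change 2.04, SE 0.31, edgeR adjusted p 1.9e-05). Bgn, biglycan, fell from 3793, 1623 and 2857 CPM to 579, 243 and 236 CPM (log2 fold change -2.97, SE 0.34, edgeR adjusted p 4.1e-07), though it was not called in a fit of all 45 libraries without the block (-3.01, adjusted p 0.051). Fbln1, a fibulin, rose from 13.8, 5.34 and 11.98 CPM to 66.6, 40.2 and 59.7 CPM (log2 fold change 2.49, SE 0.35, edgeR adjusted p 6.9e-06), opposite to Fbln2. Postn, periostin, was not called (0.71).

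Genes of fibroblast identity were called more often higher than lower. Of 22 tested, 7 were higher and 2 lower, with a median of 0.36. Prrx1, a homeobox factor of mesenchyme, was at 126, 81.2 and 154 CPM with MyoD alone and 442, 265 and 244 CPM with F/R/C (log2 fold change 1.43, SE 0.31, edgeR adjusted p 0.00075). MEFs held 556 ± 134 CPM. Fap, fibroblast activation protein, rose from 1.72, 0.928 and 2.03 CPM to 8.17, 6.08 and 15.0 CPM (log2 fold change 2.62, SE 0.47, edgeR adjusted p 0.00011). Tbx15, a T-box factor, also rose (120.4 ± 23.4 to 324 ± 80.5 CPM; 1.42). Dpp4, a peptidase of fibroblast progenitors, had 1 read with MyoD alone and reached 1.01 ± 0.143 CPM with F/R/C (ratio of reads 63.1, 95% counting interval 10.9 to 2532), and without MyoD library 3 its log2 fold change moved from 5.56 to 7.47. Klf4 fell (-1.26). Pdgfra was called higher (1.64), but its groups overlapped, and the call was lost without F/R/C library 1 (1.07) and without the replicate block (1.69, adjusted p 0.076). Of 14 contractile genes of smooth muscle and myofibroblasts, 2 were higher and 3 lower (median 0.08), and 1 was higher without either library numbered 1. Tagln, transgelin, fell from 1584, 957 and 1263 CPM to 564, 277 and 163 CPM (log2 fold change -2.04, SE 0.41, edgeR adjusted p 0.00036), and Synpo2, an actin organiser, rose from 116, 192 and 131 CPM to 558, 594 and 582 CPM (log2 fold change 2.03, SE 0.29, edgeR adjusted p 6.9e-06). Acta2, smooth muscle actin, had a log2 fold change of -0.92 (adjusted p 0.008) and missed the fold a call needs, which it passed without MyoD library 1 (-1.01) or F/R/C library 1 (-1.03).

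Most proliferation genes were higher. Of 30 tested, 24 were higher and none lower, with a median of 1.53, and their summed level was 302 to 591 CPM with MyoD alone, 1066 to 1333 CPM with F/R/C and 954 to 2224 CPM in MEFs. Top2a, the topoisomerase of dividing cells, was at 35.8, 12.2 and 41.2 CPM with MyoD alone and 98.4, 119 and 129 CPM with F/R/C (log2 fold change 2.13, SE 0.59, edgeR adjusted p 0.0053). Ccnb1, mitotic cyclin B1, rose from 13.7, 4.41 and 13.9 CPM to 38.5, 47.6 and 48.7 CPM (log2 fold change 2.22, SE 0.57, edgeR adjusted p 0.0031). Kif11, a spindle motor, rose from 7.62, 4.64 and 11.3 CPM to 25.1, 30.1 and 36.3 CPM (log2 fold change 2.04, SE 0.54, edgeR adjusted p 0.0037). Cdc6, a licensing factor of replication, rose from 2.25 ± 0.480 to 8.75 ± 1.22 CPM (2.01). MyoD library 2 was the lowest library for Top2a, Ccnb1 and Kif11. The number of members called fell to 14 without F/R/C library 2, to 15 without all libraries of replicate number 1 and to 9 without those of number 2, and was 18 without the replicate block. Mki67 was called (1.57), but the call was lost without the replicate block (1.39, adjusted p 0.11) and without MyoD library 1 or 2 or F/R/C library 2 or 3 (1.26 to 1.63).

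Genes of cell cycle exit were called in both directions. Of 15 tested, 3 were higher and 3 lower, with a median of -0.08. Cdkn1a, the inhibitor p21 that MyoD is known to induce, was at 1208, 1357 and 1189.9 CPM with MyoD alone and 1222, 1215 and 1087 CPM with F/R/C (log2 fold change -0.09, SE 0.13, edgeR adjusted p 0.62), and the groups overlapped. Cdkn1c, the imprinted inhibitor p57, rose from 97.3, 178 and 226 CPM to 818, 1127 and 1903 CPM (log2 fold change 2.95, SE 0.48, edgeR adjusted p 3.4e-05). Without replicate number 2, 1 member was called higher. Cdkn2b, an inhibitor that TGF-beta is known to induce, fell from 86.4, 42.0 and 77.4 CPM to 29.9, 19.1 and 35.8 CPM (log2 fold change -1.27, SE 0.31, edgeR adjusted p 0.0018).

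The metabolic and inflammatory lists differed in their counts. None of 18 cholesterol synthesis genes was called (median 0.18). Of 24 genes of glycolysis and the hypoxia response, 4 were higher and 2 lower (median 0.24), a share near the 21.3% called over all genes tested. Without replicate number 3 the number higher was 2. The calls of the lower pair were lost without replicate number 2 or F/R/C library 2, and 1 of them without MyoD library 2, F/R/C library 1 or the replicate block. Pdk1, which keeps pyruvate out of mitochondria, rose from 9.43, 10.6 and 8.501 CPM to 25.1, 21.5 and 56.8 CPM (log2 fold change 1.78, SE 0.46, edgeR adjusted p 0.0031), with F/R/C library 3 the highest. Bnip3, a mitophagy gene, was at 21.1, 26.8 and 19.6 CPM with MyoD alone and 52.2, 44.9 and 126 CPM with F/R/C (log2 fold change 1.65, SE 0.42, edgeR adjusted p 0.003), again highest in F/R/C library 3, and without replicate number 3 it was at 1.06. Of 18 interferon and inflammatory genes, 5 were higher and 1 lower (median 0.92), and without either library numbered 1 the number higher was 3. Cxcl5, a neutrophil chemokine, was at 0.0491, 0.186 and 0.483 CPM with MyoD alone and 21.95, 3.99 and 11.2 CPM with F/R/C (log2 fold change 5.63, SE 1.52, edgeR adjusted p 0.0047), and without MyoD library 1 it was at 4.90. The interferon targets Ifit1 (1.19), Ifit3 (0.60) and Isg15 (0.25) were not called. Of 15 neural and homeobox genes, 4 were higher and 1 lower (median 1.18). Nsg2, a neuronal endosome protein, was at 92.0, 116 and 99.9 CPM with MyoD alone and 4.86, 7.23 and 4.90 CPM with F/R/C (log2 fold change -4.22, SE 0.25, edgeR adjusted p 1.5e-10). Isl1, a homeobox factor of motor neurons, rose from 0.0491, 0.0928 and 0.0966 CPM to 0.268, 0.848 and 1.52 CPM (log2 fold change 3.26, SE 0.72, edgeR adjusted p 0.00085).

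Markers of other cell types that such cultures could hold were examined next. Of the adipocyte markers, 5 of the 7 tested were higher and none lower, and the 8 genes summed to 12.8 to 23.8 CPM with MyoD alone, 231 to 299 CPM with F/R/C and 26.3 to 40.1 CPM in MEFs. Most of that sum was Lpl, lipoprotein lipase, which muscle also expresses. Lpl was at 19.6, 10.2 and 16.7 CPM with MyoD alone and 276, 294 and 225 CPM with F/R/C (log2 fold change 4.13, SE 0.41, edgeR adjusted p 6.7e-08). Adipoq, adiponectin, had no reads with MyoD alone and 2.68, 0.199 and 0.238 CPM with F/R/C, at least 7.22-fold higher against the floor. F/R/C library 1 held most of it, and also most of Plin1 (3.26, 0.249 and 0.190 CPM) and Fabp4 (7.90, 0.449 and 0.714 CPM). Without that library the calls of Plin1 (log2 fold change 4.61, then 3.78) and Fabp4 (2.56, then 1.09) were lost, and that of Plin1 also without MyoD library 1 (3.50), so 3 members were called higher without either of these libraries and 1 without replicate number 1. The call of Adipoq was lost without replicate number 1 (log2 fold change 7.15, then 5.33). Pparg (0.80) and Cebpa (0.74), the regulators of fat cells, were not called. Whether fat cells in that culture had a part in any result was not tested. Lpl itself was high in all 3 F/R/C libraries.

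Markers of the remaining cell types had sums of differing size. Endothelial markers summed to 6.54 to 8.75 CPM with MyoD alone and 5.09 to 10.5 CPM with F/R/C, with 1 of 7 tested higher and 1 lower. Macrophage and leukocyte markers summed to 8.79 to 13.0 and 16.3 to 20.6 CPM (1 of 5 higher, 1 lower). Epithelial markers summed to 3.71 to 9.23 and 8.85 to 34.8 CPM (3 of 4 higher), with the keratins Krt5 and Krt14 at 0 reads in all 6 libraries. Krt8, a simple epithelial keratin, rose from 0.246, 0.0464 and 0.0483 CPM to 3.61, 3.09 and 0.809 CPM (log2 fold change 4.48, SE 0.71, edgeR adjusted p 3.8e-05). Chondrocyte markers summed to 24.3 to 39.4 and 13.9 to 16.4 CPM (none of 5 higher, 1 lower) and osteoblast markers to 22.9 to 36.4 and 17.1 to 27.8 CPM (1 of 6 higher, 1 lower). Glial and neural crest markers summed to 112 to 187 and 84.2 to 156 CPM (1 of 5 higher, 1 lower). Pericyte and smooth muscle markers summed to 437 to 573 and 494 to 829 CPM (3 of 8 higher, 1 lower). The 3 called higher were Kcnj8 (mean 0.0164 to 2.43 CPM), Notch3 (2.26) and Myh11 (1.56), the last not without either library numbered 1. The 1 that fell was Cspg4 (NG2), from 172 ± 15.3 to 29.8 ± 1.82 CPM (-2.52). The part of these cells in the results above was not tested.

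Day 6 lies in the middle of the course, and group means of the neighbouring days place it. Each day has libraries of its own. Fn1 with F/R/C was at 1087 ± 854 CPM on day 4, 972 ± 776 on day 6 and 927 ± 653 on day 8 (SD, n = 3), against 12692 ± 4708, 14753 ± 6102 and 16635 ± 5784 with MyoD alone. The means with F/R/C were thus low on all 3 days. Casq1 with F/R/C was at 632 ± 151 CPM on day 4, 598 ± 34.1 on day 6 and 318 ± 72.4 on day 8. Myh1 with F/R/C had means of 2229 ± 713, 1419.7 ± 442 and 839.5 ± 207 CPM on the same days. Pax7 with F/R/C had means of 0.520 ± 0.539, 4.44 ± 4.05 and 30.0 ± 1.25 CPM. The means of the fast fiber genes Casq1 and Myh1 were therefore near or past their highest on day 6, and that of Pax7 was still low. Pnmt with MyoD alone had means of 200.2 ± 81.8, 469 ± 305 and 150.5 ± 107 CPM, highest on day 6.

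**Figure D5:**
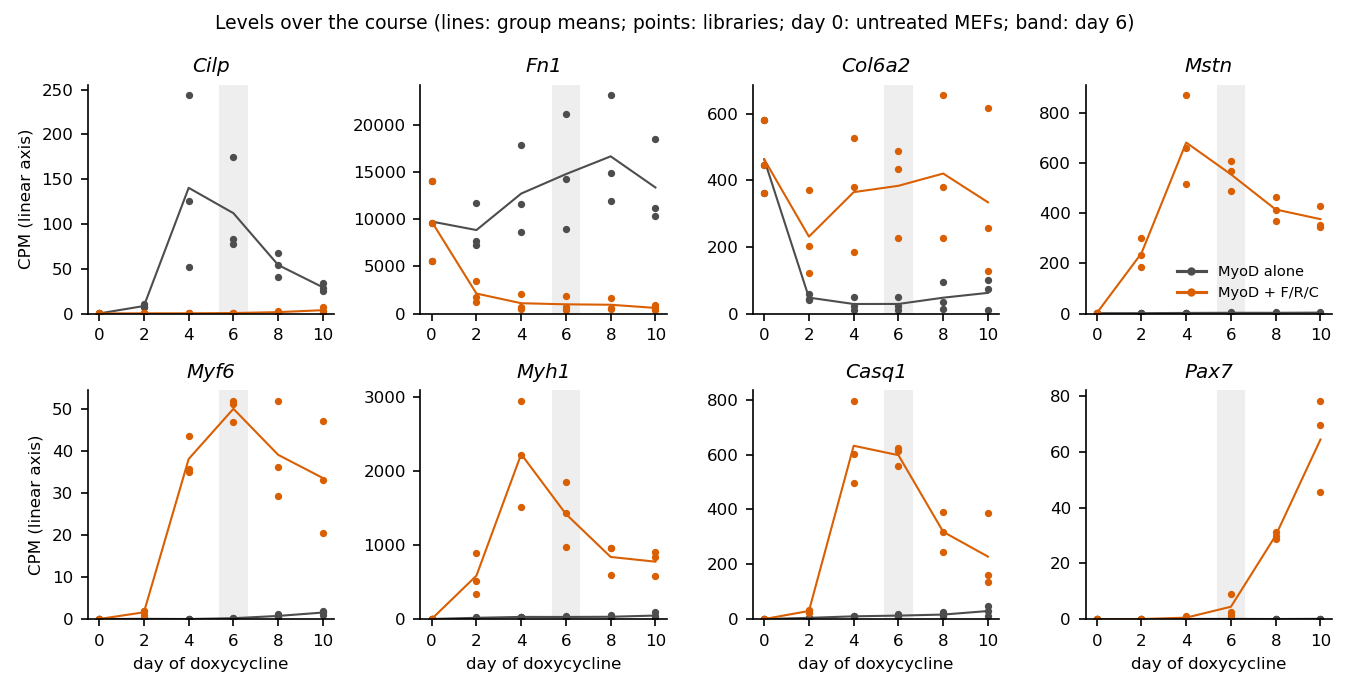
CPM of 8 genes over the course, on linear axes: points are libraries and lines join group means, grey for MyoD alone and orange for MyoD with F/R/C, with both lines starting at the untreated MEFs (day 0, orange points) and day 6 shaded. The means of Cilp and Fn1 lie lower with F/R/C from day 2 on, Mstn, Myf6, Myh1 and Casq1 are at their highest mean on day 4 or 6, and Pax7 is at its highest on day 10 (64.5 CPM).

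The difference between the F/R/C effects of neighbouring days was tested in the same fit. Between days 4 and 6, no gene was called by edgeR's test, while 693 of 16688 (4.15%) had an unadjusted p under 0.05. By DESeq2, 2 genes were called, Gm49361 and Rasgef1b. Between days 6 and 8, 1 gene was called, Phactr2 (0.00599% of those tested), and 1765 genes (10.6%) had an unadjusted p under 0.05. DESeq2 called 81 genes there, and edgeR called 18 without F/R/C library 3 of day 6. The number of genes that differed between days 6 and 8 thus depended on the tool and on that library, and a p that misses the threshold does not show that the effects were equal.

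Promoter sequences were searched for 5 motifs on both strands in windows from 250 bases before to 50 after the start. Of 32851 promoters in the table, 16.3% held the E-box CAGCTG, against 16.4% of the promoters of genes tested, 18.0% of those of genes called higher and 21.5% of those called lower. The cAMP response element TGACGTCA was in 1.79% of all promoters, in 2.75% for genes tested, in 2.24% for those called higher and in 1.02% for those called lower. Its short form TGACG, which the full element contains, was in 20.8%, 28.6%, 24.0% and 18.7% in the same order. The TCF/LEF sites CTTTGAT or CTTTGAA were in 8.65%, 6.23%, 8.45% and 6.99%. The Smad palindrome GTCTAGAC was in 0.213%, 0.265%, 0.230% and 0.407%, on 4 and 6 promoters of called genes. These shares describe letters in a window and not binding.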

How the data were processed

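RNA was sequenced from 45 libraries, of which the day 6 comparison used 6. Per the labels' protocols, libraries were stranded poly-A preparations read single-end. The submitters' processing notes name bcl2fastq 2.19, Trimmomatic 0.36, kallisto 0.44, edgeR 3.28 and GRCm38.p6. The deposited values are estimated counts and TPM for each transcript, per the file headers. A gene's estimated counts were added up over its transcripts and rounded, and the authors' TPM served only for the myosin shares. Of 121843 transcripts, 121104 matched a GENCODE gene, holding 99.5% to 99.6% of the reads of the day 6 libraries.

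The main test was edgeR 4.0.16 (R 4.3.3; quasi-likelihood F test, TMM scaling, low genes removed by filterByExpr) on 33 libraries, MEFs and both arms on days 2 to 10, which pool their estimate of spread. Totals ran from 15643670 to 28209714 reads. The model had a term for each group and replicate number as a block, and p-values were adjusted by Benjamini-Hochberg over all 16688 genes. The SE given with a log2 fold change is its absolute value divided by the square root of the F statistic. The comparison is defined as paired by number. In deviations from group means, same-numbered day 6 libraries had r of 0.385, 0.321 and 0.233, and differently numbered ones -0.274 to 0.0161. Deviations within a group sum to 0, so the negative values of the second set partly follow from the positive ones of the first. All 11 libraries numbered 3 held Y-linked transcripts (141 to 168 CPM summed) and at most 0.386 CPM of Xist, and the other 22 held 248 to 695 CPM of Xist. Replicates within a group differed by more than sampling noise.

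Named genes were the 10 per direction with the largest fold change among called protein-coding genes with at least 5 CPM in the higher group and no overlap between groups, plus Myod1 and members of the lists. A few members are not reported here. The rule for day differences took 5 per direction. Members and lists were chosen with earlier results of these data known. On simulated counts (16100 genes, 200 changed 4-fold), 164 genes were called, 161 of them changed (80.5% recovered). The simulation gave all other genes the same mean rate in every library and held no replicate effect, so these rates need not hold for the real comparison. Ratios with 1 to 3 reads carry exact 95% intervals, and the floor for groups without reads was 3 reads per library; both cover counting error only. Alternatives covered the block, the libraries fitted, scaling, filters, thresholds, DESeq2 1.42.0 and leaving out libraries. Promoters matched 11 of the 20 leading genes and exclude chromosome 18. Counting divided reads between similar transcripts, and 22189 of 35675 genes had whole-number sums (within 0.01).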

Additional observations from a re-analysis of the deposited data

Results flagged for a closer look

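For Phactr2, a regulator of phosphatase 1 and actin, the F/R/C effect differed between days 6 and 8 by a test of the difference itself. It was the 1 gene of 16688 (0.00599%) called there: the effect on day 8 exceeded that on day 6 by 1.27 on the log2 scale (SE 0.21, edgeR adjusted p 0.037). Its mean was 24.9 CPM with MyoD alone and 29.5 CPM with F/R/C on day 6, and 20.6 CPM and 58.5 CPM on day 8. The call was lost without the replicate block and in most other settings tried.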

How the results depend on the processing

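The day 6 count of 3558 called genes moved by more than 1.5 times only with the threshold: 7205 without a minimum fold and 1575 at an absolute log2 fold change of 2. Leaving out 1 library or replicate number gave 2548 (without number 2) to 3548. Without the replicate block 3074 genes were called, 3058 of them shared (85.9% of the 3558). Of the 169 genes examined by name, 125 were called, and 101 of these kept the call under all alternatives except the higher fold, which 42 did not reach. Of the other 24, 7 lost it without the block, and they are named in the report. Of the 44 not called, 6 were called under some alternative that kept a minimum fold: Col5a1, Myod1, Acta2, Tgfb2, Fst and, without replicate number 1, Postn (1.00). No called gene changed sign. When libraries were left out, genes that were not called crossed 0: Myog ran from -0.31 to 0.13, Acta1 from -0.02 to 0.44, Cdkn1a from -0.18 to 0.04, Lef1 from -0.55 to 0.24, Tcf7 from -0.31 to 0.08, Ryr1 from -0.16 to 0.04, Tnni1 from -0.39 to 0.00 and Tnnt3 from -0.06 to 0.43.

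For the difference between days 6 and 4, edgeR called 0 genes (693 with an unadjusted p under 0.05) and DESeq2 2. Between days 8 and 6, against 1 in the reported fit, 0 were called without the block, in the fit of all 45 libraries, in the compared groups without the block, with the stricter filter, with RLE scaling, without a filter and at a log2 difference of 2. There were 2 in the compared groups with the block, 2 without a minimum fold and 81 by DESeq2. Leave-outs gave 0 to 18, the most without F/R/C library 3 of day 6. The cause was not tested. With 3 libraries a group, genes of few reads have wide intervals.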
